A study of Arabidopsis thaliana with 18 samples.

Results

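Roots of starved Arabidopsis seedlings given the cytokinin cis-zeatin were compared with roots of fed, untreated seedlings, to find which genes changed by phosphate starvation were back at the fed level and which stayed displaced. The comparison uses 6 of the 18 poly(A) RNA-seq libraries of the study, 3 in each group, named by their group and a replicate number from R1 to R3. All plants were wild-type Arabidopsis thaliana of the accession Columbia (Col-0), and all groups were raised for 8 days in Murashige and Skoog medium before root RNA was taken. The group 5Pi_cZ had 5 µM phosphate and then 5 µM cis-zeatin for 8 h. The group Pi had 625 µM phosphate and no zeatin. Starved roots with 5 µM trans-zeatin (5Pi_tZ) and starved untreated roots (5Pi), 3 libraries each, serve as landmarks between them. The labels describe the 5 µM medium as lacking phosphate, and do not say whether plants were pooled or whether replicates came from separate cultures, so p-values measure only the spread between these samples.

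Plants sense low phosphate largely through SPX proteins, which hold back the transcription factor PHR1 while phosphate is plentiful. When phosphate runs out PHR1 is released and switches on transporters, secreted phosphatases, nucleases and enzymes that replace phospholipids by sulfolipids and galactolipids. Cytokinins are read by AHK receptor kinases, which pass the signal through AHP proteins to response regulators, and they are known to dampen several phosphate-starvation genes. cis-Zeatin and trans-zeatin have the same atoms and differ in the geometry of the double bond in the side chain.

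Library totals run from 20839562 to 21871669 counted reads, and 19982 genes passed the filter on low counts. Root markers were present as the label says: PYK10, a β-glucosidase abundant in roots, had 24110 to 24670 CPM in 5Pi_cZ and 19570 to 24550 CPM in Pi, and the quiescent-centre gene WOX5 is present in all 6 libraries. CPM are a library's counts scaled to a total of 1000000, with TMM factors. Replicate R2 of 5Pi_cZ stands apart from R1 and R3 (chi-square per degree of freedom 30.73 and 28.44, against 4.26 between R1 and R3), whereas the Pi pairs lie between 2.74 and 7.31. R2 of 5Pi_tZ stands apart too (20.68 and 13.63, against 6.96). Reads discarded for undetermined bases vary within 5Pi_tZ, with 23120 in R1, 58614 in R2 and 51830 in R3. They number 40794 to 57285 in 5Pi_cZ, 22738 to 23728 in 5Pi and 84024 to 84595 in Pi, so whatever set these numbers cannot be told apart from these groups. In bulk roots, fewer cells of a type and less RNA per cell cannot be told apart either.

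Against fed roots, 11004 genes (55.1% of those tested) passed edgeR's quasi-likelihood test at an adjusted p of 0.05 in 5Pi_cZ, 5275 higher (26.4%) and 5729 lower (28.7%); 11901 (59.6%) had an unadjusted p below the same threshold. At least 2-fold differences remained for 2625 genes (13.1%), of which 1417 (7.09%) were higher and 1208 (6.05%) lower in 5Pi_cZ. Starvation alone, 5Pi against Pi, changed 1764 genes (8.83%) at least 2-fold, 1011 raised and 753 lowered. For each of these the 95% interval of the log2 fold change of 5Pi_cZ over Pi was set against a margin of 1.5-fold, which is 0.585 on the log2 scale. A gene was called back at the fed level when its whole interval lay inside the margin, because a test that misses its threshold does not show equality. It was called displaced when it passed the test without lying inside the margin. Both comparisons share the Pi libraries, so the counts describe where genes stand and are no independent evidence.

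Of the 1764 genes 1487 (84.3%) were still displaced on the side to which starvation had moved them, and 1251 of those were at least 2-fold away. Only 56 (3.18%) were back at the fed level, 33 that starvation had raised and 23 that it had lowered. Another 45 had crossed to the other side of the fed level, and 176 could not be placed. Without replicate R2 of 5Pi_cZ 55 genes were back, 1466 displaced on the same side and 43 on the other. Over all tested genes 9760 (48.8%) had an interval inside the margin, which is the share to hold beside the 3.18%. The median share of the log2 starvation difference that was left in 5Pi_cZ was 83.8% for raised genes and 102.1% for lowered genes.

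**Figure D1:**
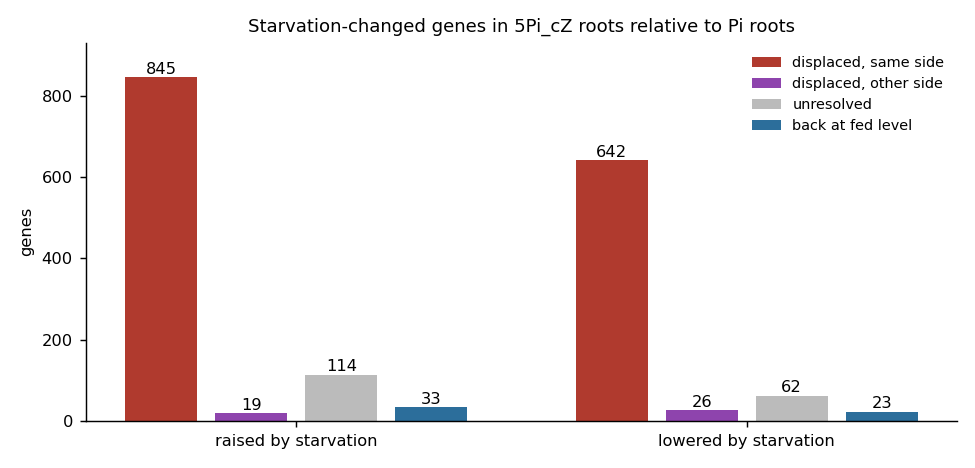
Number of genes (vertical axis) that starvation had raised (left) or lowered (right) at least 2-fold, by where they stand in 5Pi_cZ roots relative to Pi roots. Displaced genes on the same side, 845 raised and 642 lowered, are the tallest bars, and genes back at the fed level number 33 and 23 (n = 3 libraries a group).

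The direct test against 5Pi also passed for many genes that did not return. Of the 1764 genes 828 differed between 5Pi_cZ and 5Pi, against a background of 31.2% of all genes, 545 toward the fed level and 283 away from it. The same 5Pi libraries chose these genes, and that choice favours differences toward the fed level. These counts are therefore descriptions and no independent evidence of movement. Among the 1011 raised genes 392 had moved toward the fed level and 125 further up. The 753 lowered genes gave 153 toward the fed level and 158 further down. Over all genes 13.1% were higher and 18.1% lower in 5Pi_cZ than in 5Pi. The counts further up and further down lie near these shares. Of the starvation-changed genes nearest the margin, AT3G13404, ZIP1 and AT5G54370 lie inside it with interval ends at -0.584, 0.582 and 0.58. AT3G43850, AT5G03890 and AT4G39970 lie just outside with interval ends at -0.591, 0.595 and -0.598.

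Most genes of the phosphate response stood between the starved and the fed level. A short motif, P1BS, is the site that PHR1 is known to bind, and the 300 bases before the gene start are printed here for 3 genes that stayed high and 2 that came back, because the motif occurs in both kinds. P1BS is written GNATATNC, with N for any base; it reads the same on both strands, and its matches are in capitals. Sequences are from RefSeq, assembly TAIR10.1, each 5′ to 3′ on the strand of its gene, and no window touches another annotated gene.
SPX3 (chr2:18606110-18606409, plus strand): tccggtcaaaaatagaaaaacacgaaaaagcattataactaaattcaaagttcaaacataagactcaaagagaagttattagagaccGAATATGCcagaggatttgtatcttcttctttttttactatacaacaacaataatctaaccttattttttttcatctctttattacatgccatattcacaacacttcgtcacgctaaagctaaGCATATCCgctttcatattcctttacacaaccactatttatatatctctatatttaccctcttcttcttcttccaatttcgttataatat
AT4 (chr5:894282-894581, plus strand): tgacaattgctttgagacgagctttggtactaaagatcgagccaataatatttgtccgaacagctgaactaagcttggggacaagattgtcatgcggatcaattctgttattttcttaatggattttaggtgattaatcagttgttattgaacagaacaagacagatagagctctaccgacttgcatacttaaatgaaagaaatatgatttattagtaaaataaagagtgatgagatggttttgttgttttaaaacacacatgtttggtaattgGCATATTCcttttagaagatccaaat
GDPD1 (chr3:350011-350310, minus strand): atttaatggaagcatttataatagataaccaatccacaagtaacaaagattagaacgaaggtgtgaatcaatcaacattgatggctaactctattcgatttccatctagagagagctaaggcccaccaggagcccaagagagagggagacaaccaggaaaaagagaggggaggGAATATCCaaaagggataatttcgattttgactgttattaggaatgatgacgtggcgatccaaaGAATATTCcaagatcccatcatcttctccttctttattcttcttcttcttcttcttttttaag
SULTR2;1 (chr5:3192717-3193016, plus strand): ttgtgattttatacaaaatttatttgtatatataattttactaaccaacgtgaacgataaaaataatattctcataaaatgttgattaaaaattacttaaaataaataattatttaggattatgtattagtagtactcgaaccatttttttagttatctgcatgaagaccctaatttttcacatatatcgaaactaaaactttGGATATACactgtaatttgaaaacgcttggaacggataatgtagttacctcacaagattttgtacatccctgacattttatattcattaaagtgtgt
AT3G57157 (chr3:21156711-21157010, plus strand): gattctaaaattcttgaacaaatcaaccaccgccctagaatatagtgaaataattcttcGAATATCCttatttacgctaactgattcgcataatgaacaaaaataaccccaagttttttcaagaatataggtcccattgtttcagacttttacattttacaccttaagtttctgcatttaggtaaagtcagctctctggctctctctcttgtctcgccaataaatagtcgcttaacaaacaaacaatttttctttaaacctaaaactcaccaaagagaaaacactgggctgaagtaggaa
SPX3 and GDPD1 hold 2 matches each, and AT4, SULTR2;1 and AT3G57157 hold 1 each. Among 19944 tested genes with such a window 1312 (6.58%) hold the motif. It occurs before 123 of 845 starvation-raised genes that stayed high (14.6%), 8 of 33 that came back (24.2%) and 7 of 114 that could not be placed (6.14%). Among lowered genes it occurs before 32 of 629 that stayed low (5.09%), 3 of 23 that came back (13%) and 0 of 59 that could not be placed. Of genes that crossed the fed level, 1 of 19 raised (5.26%) and 2 of 26 lowered (7.69%) hold it. IPS1, SPX1, PHT1;4, PECP1 and RNS1, which also stayed high, hold no match in this window. A match describes these letters only and shows no binding.

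All 16 starvation-changed members of the phosphate uptake and signalling list were still displaced on the same side in 5Pi_cZ, beside 84.3% of all starvation-changed genes. Of its 22 members 15 were higher and 7 lower than in Pi, against 26.4% and 28.7% of all genes, with a median log2 fold change of 1.53 in 5Pi_cZ over Pi and 2.56 in 5Pi over Pi. Over all genes these medians are -0.01 and 0. Over the 16 starvation-changed members, 14 of them raised, the median share of the log2 starvation difference left was 70.8%. Among lowered members, PHO2 stood further from Pi in 5Pi_cZ than in 5Pi.

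PHT1;4, a main root phosphate importer, had 251, 237 and 233 CPM in 5Pi_cZ, 692, 770 and 693 CPM in 5Pi, and 53.6, 47.7 and 43.0 CPM in Pi. No library of one group overlaps another. Its log2 fold change over Pi was 2.32 ± 0.09 (SE, n = 3 a group; edgeR adjusted p = 2.35e-14), against 3.90 ± 0.10 in 5Pi. PHT1;9, a high-affinity transporter, kept the least of its starvation rise in the list. Its 17.1, 13.5 and 14.8 CPM in 5Pi_cZ stand beside 54.7, 52.2 and 50.5 in 5Pi and 8.75, 8.06 and 9.83 in Pi. The remaining log2 difference was 0.77 ± 0.12 (edgeR adjusted p = 1.96e-05), 30% of that in 5Pi. PHF1, which lets PHT1 proteins leave the endoplasmic reticulum, kept 65.7%. Nearly identical PHT1 genes share short reads, so PHT1;1, PHT1;2 and PHT1;3 are uncertain as single genes.

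Both RNAs that mimic the target of microRNA miR399 stayed far above fed roots. IPS1 had 201, 228 and 220 CPM in 5Pi_cZ, 427, 406 and 396 CPM in 5Pi, and 0.541, 0.637 and 0.320 CPM in Pi. It was the largest rise named, 8.74 ± 0.25 on the log2 scale (edgeR adjusted p = 5.23e-16), although Pi holds only 33 of its reads in all. AT4 had 1379, 1464 and 1279 CPM in 5Pi_cZ, 1812, 1765 and 1574 CPM in 5Pi, and 40.6, 40.7 and 45.2 CPM in Pi. Its level did not differ from 5Pi by the test (log2 difference -0.32, 95% interval -0.59 to -0.05, edgeR adjusted p = 0.0634), and 94% of the starvation difference was left.

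SPX1 and SPX3, repressors that starvation induces, kept 78.6% and 71.1%. SPX1 had 300, 363 and 292 CPM in 5Pi_cZ, 830, 768 and 731 in 5Pi, and 14.4, 11.3 and 10.4 in Pi. SPX3 had 14.8, 16.5 and 16.7 CPM in 5Pi_cZ, 68.6, 63.9 and 61.0 in 5Pi, and 0.587, 0.455 and 0.503 in Pi. The regulator genes PHR1 and PHL1 were slightly below fed roots, with log2 fold changes of -0.33 ± 0.07 and -0.54 ± 0.09.

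PHO1, PHO2 and NLA were below both Pi and 5Pi, while PHO1;H1, the other PHO1-family member of the list, was above Pi. PHO1, which loads phosphate into the xylem, had 180, 118 and 168 CPM in 5Pi_cZ, 508, 540 and 444 CPM in 5Pi, and 615, 548 and 546 CPM in Pi. Starvation alone left it inside the margin, and the log2 fold change of 5Pi_cZ over Pi was -1.87 ± 0.13 (edgeR adjusted p = 1.05e-10). PHO2, an enzyme that marks phosphate transporters for degradation, had 64.4, 43.3 and 63.0 CPM in 5Pi_cZ, 173, 156 and 134 CPM in 5Pi, and 323, 304 and 329 CPM in Pi. Each of its groups is separate from the others, and its log2 distance from Pi was -2.49 ± 0.14 in 5Pi_cZ and -1.05 ± 0.13 in 5Pi. NLA, another factor of transporter degradation, was at -2.04 ± 0.10 in 5Pi_cZ and -1.60 ± 0.10 in 5Pi, and the direct difference of 5Pi_cZ from 5Pi was -0.44 (edgeR adjusted p = 0.00455). PHO1;H1 was at 1.54 ± 0.12 in 5Pi_cZ and 1.89 ± 0.12 in 5Pi.

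**Figure D2:**
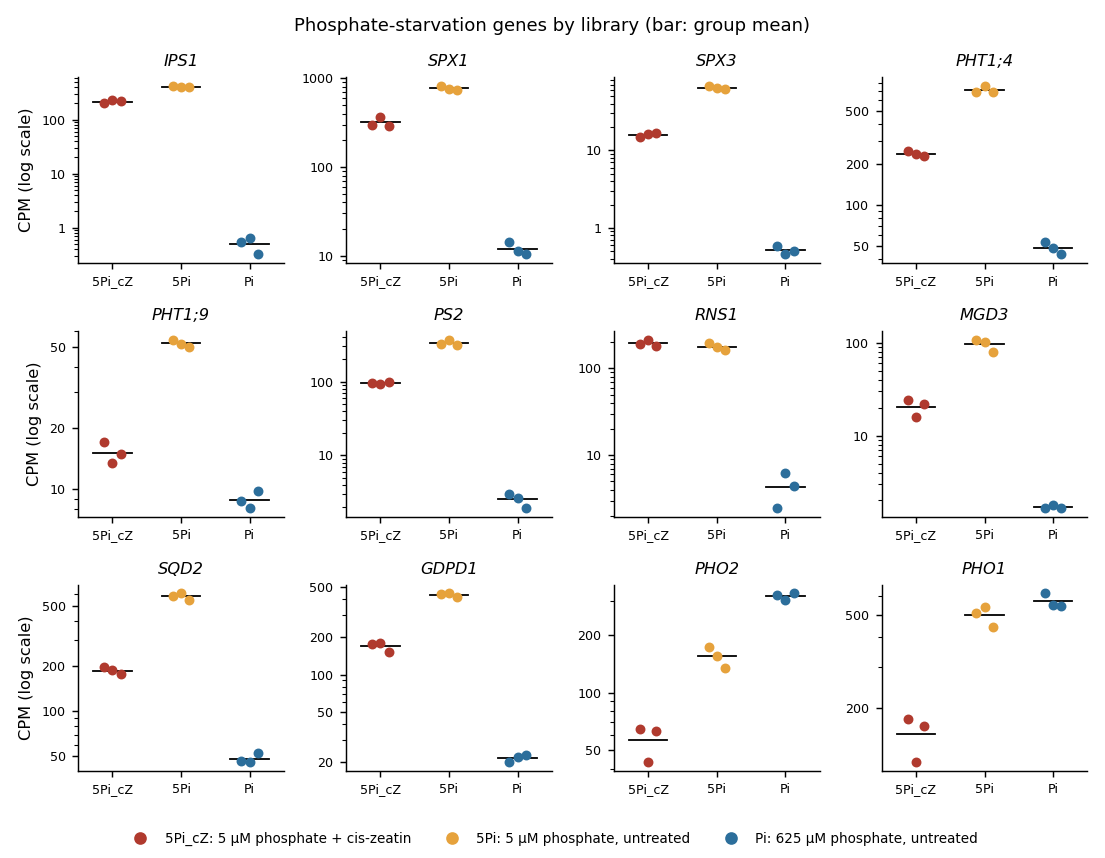
CPM (log scale) of 12 phosphate-starvation genes in each library of 5Pi_cZ, 5Pi and Pi; points are libraries and bars are group means (n = 3). In 9 panels 5Pi_cZ lies between 5Pi and Pi; RNS1 is level with 5Pi, with 192, 216 and 180 CPM against 198, 175 and 164 CPM, and PHO2 and PHO1 lie below both other groups.

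Phosphatases and scavenging enzymes were likewise still raised. Of 15 members 14 were higher than in Pi and none was lower, beside 26.4% and 28.7% of all genes. All 14 starvation-changed members stayed on the raised side, beside 83.6% of all starvation-raised genes, with a median of 73.8% left. The median log2 fold change over Pi was 3.67 in 5Pi_cZ and 4.15 in 5Pi; with PAP14, PAP23 and PAP25, which had no read in Pi, set to their lower bounds (a floor of 3 counts per library) it was 2.95 and 3.28. PS2, a phosphatase, had 94.6, 92.8 and 98.8 CPM in 5Pi_cZ, 322, 370 and 310 CPM in 5Pi, and 3.02, 2.69 and 1.92 CPM in Pi (log2 fold change over Pi 5.22 ± 0.17, edgeR adjusted p = 1.93e-15). PECP1, a phosphatase acting on phosphoethanolamine and phosphocholine, had 65.5, 79.8 and 63.3 CPM in 5Pi_cZ, 276, 298 and 248 CPM in 5Pi, and 0.316, 0.0455 and 0.183 CPM in Pi, where all 3 libraries together hold 12 of its reads.

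Some scavenging genes were not lower than in 5Pi. RNS1, a secreted ribonuclease, was at 5.50 ± 0.21 over Pi in 5Pi_cZ and 5.36 ± 0.21 in 5Pi, and the difference between the starved groups did not pass the test (0.13, 95% interval -0.19 to 0.46). PAP24, a purple acid phosphatase, stood above its starved level, with 13.1, 11.4 and 10.9 CPM in 5Pi_cZ, 5.62, 5.85 and 6.28 CPM in 5Pi, and 0.767, 0.546 and 0.503 CPM in Pi. PAP26 was not changed by starvation and did not pass the test in 5Pi_cZ (0.15 ± 0.07, edgeR adjusted p = 0.0744).

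The 13 starvation-changed membrane lipid genes were again all displaced on the same side, beside 84.3% of all starvation-changed genes, with a median of 60.8% left. Of 16 members tested 14 were higher and 2 lower than in Pi, beside 26.4% and 28.7% of all genes. The list median was 1.57 in 5Pi_cZ and 3 in 5Pi. MGD3, a galactolipid synthase, had 24.0, 15.9 and 21.6 CPM in 5Pi_cZ, 108, 102 and 79.9 CPM in 5Pi, and 1.67, 1.77 and 1.65 CPM in Pi. SQD2, which completes sulfolipid synthesis, had 196, 188 and 176 CPM in 5Pi_cZ, 589, 608 and 547 CPM in 5Pi, and 47.0, 45.7 and 52.6 CPM in Pi, so 54.3% of its log2 difference was left. DGD1 and PAH1, a galactolipid synthase and a phosphatidate phosphatase, were the starvation-changed members nearest to fed roots, at 0.54 ± 0.09 and 0.58 ± 0.09. GDPD1, a glycerophosphodiester phosphodiesterase, was at 2.97 ± 0.12, and the phospholipase gene NPC4 at 2.97 ± 0.11.

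The 33 starvation-raised genes that were back in 5Pi_cZ lay between -0.27 and 0.35 on the log2 scale relative to Pi. All 33 differed from 5Pi, which the rule for the class nearly fixes. Their starvation rises ranged from 1.01 to 1.98, short of those of SPX3 (6.95) or PS2 (7.03), and none belongs to the 3 phosphate lists. Those lists hold 14, 14 and 13 of the 1011 raised genes, and 3.26% of the raised genes came back. The absence of list members is near that share. In 23 of the 33 the libraries of 5Pi_cZ and Pi overlap, where 60% of all genes show no overlap between these groups. The rule for the class favours such overlap. Of the 33, 8 passed the test although they lay inside the margin.

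AT3G57157, an RNA without an annotated protein, had the largest starvation rise in the class. It had 15.2, 15.1 and 15.3 CPM in 5Pi_cZ, 86.2, 65.2 and 66.1 CPM in 5Pi, and 19.4, 18.5 and 17.1 CPM in Pi. The log2 fold change over Pi was -0.27 (95% interval -0.53 to -0.01) in 5Pi_cZ and 1.98 in 5Pi. KUP9, a potassium transporter of the KUP family, had 20.6, 14.4 and 19.3 CPM in 5Pi_cZ, 70.2, 59.5 and 58.4 CPM in 5Pi, and 16.9, 16.6 and 16.7 CPM in Pi. BCAT4, an aminotransferase that starts methionine chain elongation for glucosinolates, had 57.1, 55.4 and 60.8 CPM in 5Pi_cZ, 219, 228 and 210 CPM in 5Pi, and 50.3, 68.2 and 68.4 CPM in Pi. For both, the libraries of 5Pi_cZ and Pi overlap and those of 5Pi stand apart.

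PPCK1 codes for the kinase that activates phosphoenolpyruvate carboxylase. It had 46.0, 57.0 and 46.5 CPM in 5Pi_cZ, 131, 143 and 135 CPM in 5Pi, and 51.1, 46.2 and 45.9 CPM in Pi (log2 fold change over Pi 0.06, 95% interval -0.15 to 0.27). SULTR2;1, a low-affinity sulfate transporter of the vasculature, is the member of the sulfate list that came back. It had 20.6, 17.4 and 22.4 CPM in 5Pi_cZ, 56.4, 49.7 and 44.3 CPM in 5Pi, and 20.98, 17.9 and 21.7 CPM in Pi, with an interval of -0.27 to 0.25. LOG1, an enzyme that releases active cytokinin bases, had 3.72, 3.79 and 3.94 CPM in 5Pi_cZ, 11.9, 9.47 and 9.67 CPM in 5Pi, and 4.06, 3.91 and 4.62 CPM in Pi.

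The raised genes CYP94B3, which oxidises jasmonoyl-isoleucine, SPD1 and AT5G47740 were also back, with log2 fold changes over Pi of 0.24, 0.19 and 0.20. Further members of the class with known roles are P5CS1 (proline synthesis, -0.15), VTC2 (ascorbate synthesis, 0.33), ABF2 (a transcription factor of abscisic acid responses, 0.24), PLC2 (a phospholipase C, 0.32) and the zinc transporter ZIP1 (0.28), picked after their values were seen. Most of the raised genes named as back were also lower in fed roots given cis-zeatin for 8 h (Pi_cZ, 3 libraries). That comparison uses the same Pi libraries, and its share over all genes was not counted. The log2 fold change of Pi_cZ over Pi was -1.05 ± 0.16 for KUP9, -0.98 ± 0.11 for PPCK1 and -0.87 ± 0.13 for SULTR2;1 (edgeR adjusted p = 2.04e-05, 2.89e-07 and 2.44e-05). Also lower by the test were BCAT4 (-1.12), AT5G47740 (-1.06), ZIP1 (-1.03), AT3G57157 (-0.965), LOG1 (-0.75), P5CS1 (-0.74), CYP94B3 (-0.49) and SPD1 (-0.405). The named genes that did not pass there were VTC2 at -0.06, ABF2 at -0.11 and PLC2 at 0.04 (edgeR adjusted p = 0.716, 0.369 and 0.778).

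The 23 starvation-lowered genes that were back lay between -0.31 and 0.34. All 23 were above 5Pi by the test, which the rule for the class again nearly fixes. AT3G11930, a protein of the adenine nucleotide alpha hydrolase family, had 52.0, 61.3 and 46.5 CPM in 5Pi_cZ, 20.2, 25.7 and 17.7 CPM in 5Pi, and 65.8, 63.3 and 63.7 CPM in Pi, with an interval of -0.51 to -0.03. CYP87A2, a cytochrome P450, had 160, 142 and 159 CPM in 5Pi_cZ, 65.3, 61.3 and 55.8 CPM in 5Pi, and 113, 168 and 150 CPM in Pi. The acyltransferase-family gene AT5G47950 had 68.9, 69.6 and 64.8 CPM in 5Pi_cZ, 19.2, 19.97 and 22.6 CPM in 5Pi, and 51.5, 62.8 and 70.3 CPM in Pi. CYP87A2 and AT5G47950 therefore overlap with fed roots in 5Pi_cZ.

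IDD2, a zinc-finger transcription factor, shows what the class allows: 17.7, 15.3 and 17.1 CPM in 5Pi_cZ all lie below 18.6, 19.9 and 19.8 CPM in Pi, and the difference of -0.22 ± 0.08 passes the test (edgeR adjusted p = 0.0219), yet the interval of -0.38 to -0.06 is inside the margin. Its call was lost without 5Pi_cZ R2, without Pi R2 or R3, and in a fit of only the groups compared. CYP710A2, a sterol desaturase, passed as well (-0.31, edgeR adjusted p = 0.0476), a call lost with RLE scaling, DESeq2 and limma-voom among other fits. AT1G70860, AT1G49450 and AT1G45015 were at -0.09, 0.34 and 0.26. Other lowered genes that were back include GDH1 (glutamate dehydrogenase, -0.04), LAC7 (a laccase, -0.19) and NCED2 (abscisic acid synthesis, 0.15), again picked after their values were seen.

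**Figure D3:**
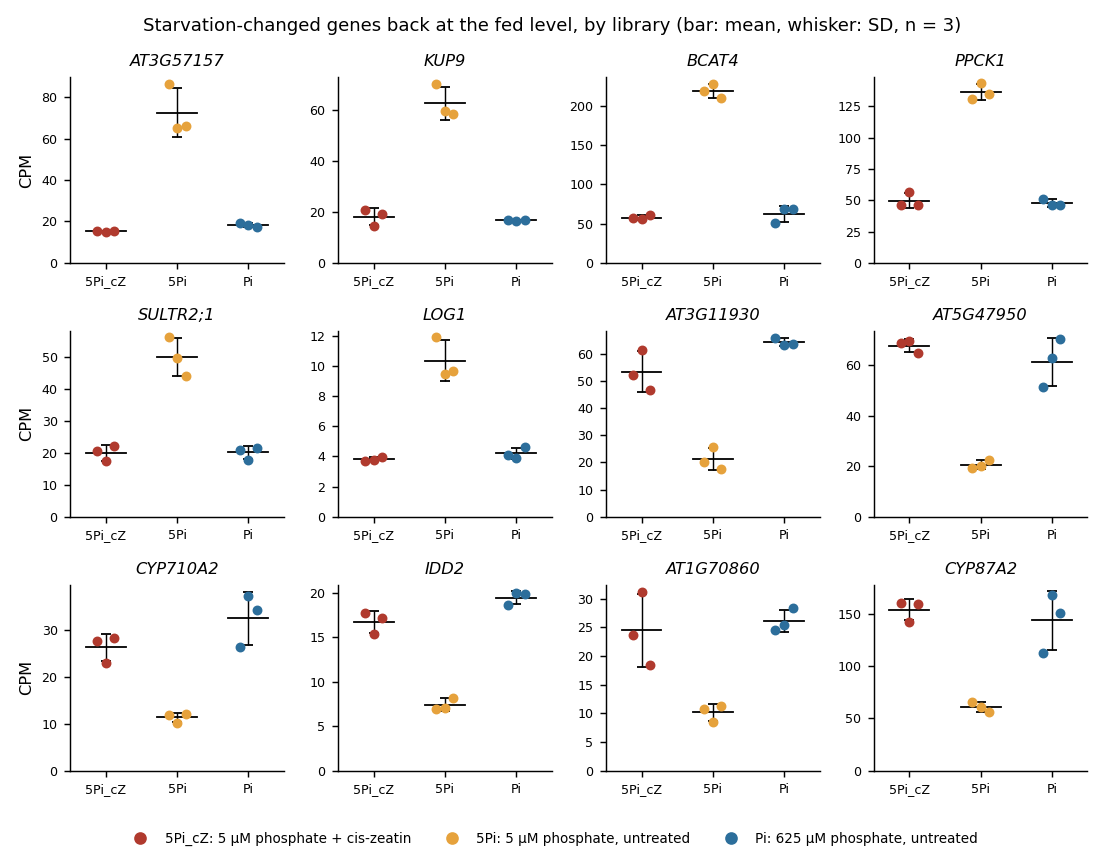
CPM (linear scale starting at 0) of 12 starvation-changed genes that were back at the fed level, 6 raised and 6 lowered by starvation, in each library; points are libraries, bars are means and whiskers are SD (n = 3). Libraries of 5Pi stand apart in all 12 panels, while 5Pi_cZ and Pi lie at about the same height, for example KUP9 at 14.4 to 20.6 CPM in 5Pi_cZ and 16.6 to 16.9 CPM in Pi.

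The 45 genes that had crossed the fed level comprise 26 lowered by starvation and now above fed roots and 19 raised by starvation and now below. CYP735A2, the hydroxylase that makes trans-zeatin-type cytokinins, had 290, 257 and 310 CPM in 5Pi_cZ, 26.9, 16.7 and 22.8 CPM in 5Pi, and 55.9, 58.0 and 61.9 CPM in Pi. Its log2 fold change over Pi was 2.29 ± 0.11 in 5Pi_cZ (edgeR adjusted p = 1.03e-12) and -1.41 ± 0.12 in 5Pi. ARR7, a type-A response regulator, had 60.6, 76.1 and 65.7 CPM in 5Pi_cZ, 10.2, 7.06 and 9.72 CPM in 5Pi, and 24.3, 23.8 and 25.7 CPM in Pi. The cytokinin oxidase CKX4 had 70.4, 67.9 and 78.3 CPM in 5Pi_cZ, 6.88, 6.5 and 6.88 CPM in 5Pi, and 39.4, 44.3 and 47.2 CPM in Pi. In these 3 genes the order of the groups is 5Pi_cZ, Pi, 5Pi from high to low, with no overlap.

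ICS2, an isochorismate synthase, GSTL1, a glutathione transferase, and AT2G34610 behaved likewise, with log2 fold changes over Pi of 1.33, 1.18 and 2.31. Downward, AK3, an aspartate kinase, had 13.7, 12.1 and 18.1 CPM in 5Pi_cZ, 94.3, 96.8 and 93.2 CPM in 5Pi, and 27.1, 28.3 and 30.1 CPM in Pi (-0.96 ± 0.15 over Pi, edgeR adjusted p = 1.52e-05). IPMI2 and IMD1, which act in leucine or methionine chain elongation, were at -0.85 ± 0.14 and -0.67 ± 0.12, AT1G21440 at -0.70 ± 0.08 and DJ1F at -0.61 ± 0.09. In the direct test all 5 were higher in 5Pi_cZ than in 5Pi_tZ, by 1.495 (log2) for AK3, 1.18 for IPMI2, 1.01 for IMD1, 0.66 for AT1G21440 and 0.60 for DJ1F. Of all 19 genes that crossed downward only 6 differed between the isomers, each higher in 5Pi_cZ, beside 1.42% of all genes.

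A further 227 genes were displaced at least 2-fold in 5Pi_cZ although starvation alone had left them inside the margin, 127 higher and 100 lower. AT2G25150, an acyltransferase-family gene, had 143, 133 and 129 CPM in 5Pi_cZ, 10.8, 7.34 and 11.5 CPM in 5Pi, and 6.68, 9.15 and 13.5 CPM in Pi (3.79 ± 0.19, edgeR adjusted p = 1.65e-12). CYP82F1, a cytochrome P450, had 342, 323 and 331 CPM in 5Pi_cZ, 60.2, 53.1 and 60.4 CPM in 5Pi, and 42.3, 52.9 and 61.6 CPM in Pi. CKX5, a cytokinin oxidase, had 55.9, 58.0 and 54.3 CPM in 5Pi_cZ, 10.3, 9.06 and 10.2 CPM in 5Pi, and 7.31, 8.33 and 8.46 CPM in Pi. In all 3 the untreated groups lie together and 5Pi_cZ stands apart, as the rule for the class asks.

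Also in this class were AT1G14960 (3.19 ± 0.14) and the sulfotransferase-family gene AT3G45070 (2.75 ± 0.13). Lower members included AT4G13620, a DNA-binding protein of the AP2 family, with 7.72, 6.75 and 6.45 CPM in 5Pi_cZ, 39.0, 37.4 and 31.9 CPM in 5Pi, and 43.8, 44.7 and 44.6 CPM in Pi. TIP1;1, a tonoplast aquaporin, had 259, 266 and 214 CPM in 5Pi_cZ, 1048, 1024 and 1072 CPM in 5Pi, and 1225, 1287 and 1324 CPM in Pi. AT1G49470, the wall enzyme gene XTH15 and AT3G20380 were at -2.30 ± 0.13, -2.06 ± 0.11 and -2.05 ± 0.10.

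Most cytokinin response genes stood above both untreated groups. Of the 10 type-A response regulators, which cytokinin induces and which damp its signal, 9 were above Pi and none below. Over all genes 26.4% were above Pi and 28.7% below. The median of the 10 was 1.90, whereas their median in 5Pi over Pi was -0.49. All 10 were above 5Pi, beside 13.1% of all genes. ARR5 was at 2.35 ± 0.11 over Pi, ARR6 at 1.33 ± 0.08, ARR4 at 1.02 ± 0.07, ARR3 at 2.66 ± 0.15 and ARR8 at 0.35 ± 0.09. ARR9 alone did not pass (0.13 ± 0.08, edgeR adjusted p = 0.16). ARR16 had 23.6, 31.4 and 20.7 CPM in 5Pi_cZ, 3.81, 3.02 and 3.07 CPM in 5Pi, and 1.67, 1.001 and 2.01 CPM in Pi. ARR15 and ARR17 rose too, from few reads: all Pi libraries together hold 32 reads of ARR15 and 13 of ARR17.

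Of 9 cytokinin degradation and conjugation genes 7 were above Pi and 1 below, beside 26.4% and 28.7% of all genes. CKX3 was at 2.95 ± 0.15 and the glucosyltransferase UGT85A1 at 1.52 ± 0.14. Among 15 genes of cytokinin synthesis, activation and export 7 were higher and 4 lower, beside the same shares. IPT7, an isopentenyltransferase of cytokinin synthesis, had no read in any 5Pi_cZ library, against 59, 53 and 60 reads in 5Pi and 90, 92 and 80 reads in Pi, so its level was at least 28.4-fold lower than in Pi with a floor of 3 counts per library. IPT5 was at -3.34 ± 0.16 in 5Pi_cZ and -1.07 ± 0.13 in 5Pi. Among 20 genes of perception and signalling 6 were higher and 9 lower, beside 26.4% and 28.7% of all genes; these include AHP1, a phosphotransfer protein (1.33 ± 0.10), and ARR11, a type-B response regulator (-2.38 ± 0.13).

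**Figure D4:**
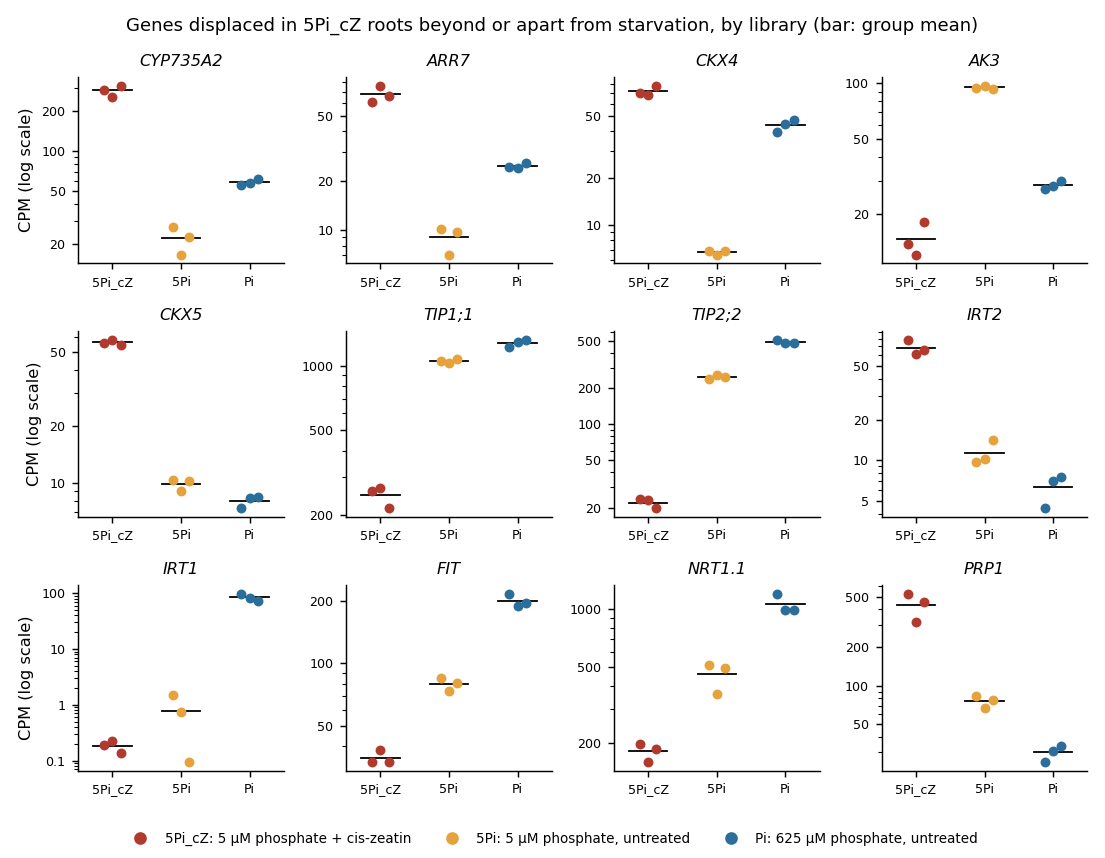
CPM (log scale) of 12 genes in each library of 5Pi_cZ, 5Pi and Pi; points are libraries and bars are group means (n = 3). CYP735A2, ARR7 and CKX4 are highest and AK3 lowest in 5Pi_cZ, with Pi between 5Pi_cZ and 5Pi; in the other panels the mean of 5Pi_cZ lies farther from Pi than that of 5Pi, for example FIT at 33.5 to 38.2 CPM in 5Pi_cZ, 73.7 to 85.0 CPM in 5Pi and 189 to 217 CPM in Pi.

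Iron uptake genes stayed well below the fed level. Of 23 genes 18 were lower and 3 higher than in Pi, beside 28.7% and 26.4% of all genes. Their median was -1.62 in 5Pi_cZ and -1.13 in 5Pi. All 13 starvation-changed members were still displaced on the same side, beside 84.3% of all starvation-changed genes. IRT1, the main ferrous iron importer of the root, had 4, 5 and 3 reads in 5Pi_cZ, 32, 16 and 2 in 5Pi, and 2188, 1790 and 1578 in Pi (log2 fold change over Pi -8.78 ± 0.37, edgeR adjusted p = 9.37e-14). FIT, the transcription factor that drives IRT1, was at -2.52 ± 0.08 in 5Pi_cZ and -1.33 ± 0.08 in 5Pi. FRO2, the ferric reductase, was at -4.70 ± 0.20. NAS1, a nicotianamine synthase, did not differ from 5Pi by the test (edgeR adjusted p = 0.178), with 44.3, 39.6 and 51.4 CPM in 5Pi_cZ, 42.3, 28.2 and 42.1 CPM in 5Pi, and 254, 211 and 206 CPM in Pi.

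The 3 iron uptake genes above Pi were IRT2, F6'H1 and BGLU42. IRT2, a relative of IRT1, had 78.7, 61.0 and 66.4 CPM in 5Pi_cZ, 9.76, 10.2 and 14.1 CPM in 5Pi, and 4.38, 7.05 and 7.45 CPM in Pi (3.45 ± 0.18, edgeR adjusted p = 1.76e-12). F6'H1, which makes the coumarin scopoletin, was at 1.06 ± 0.09, and BGLU42, a β-glucosidase that acts on coumarins, at 0.39. Copper uptake fell further than by starvation alone for FRO5, FRO4 and COPT2. FRO5, a cupric reductase, had 2, 3 and 7 reads in 5Pi_cZ, 14, 11 and 39 in 5Pi, and 1889, 2864 and 3288 in Pi, the largest fall named (-9.31 ± 0.35). COPT2, a copper importer, had 50 reads in all of 5Pi_cZ, 149 in 5Pi and 4009 in Pi. FRO4 and FRO5 are close copies, so reads may be split between them. Of 11 copper genes 7 were lower and 3 higher, and of 10 iron storage genes 5 were higher and 3 lower, beside 26.4% higher and 28.7% lower over all genes.

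Nitrate genes were mostly lower too: 15 of 21 were lower than in Pi and 1 higher, beside 28.7% and 26.4% of all genes. Their median was -0.73 in 5Pi_cZ and -0.45 in 5Pi. NRT1.1, the nitrate transporter and sensor, had 198, 159 and 187 CPM in 5Pi_cZ, 514, 362 and 495 CPM in 5Pi, and 1210, 991 and 988 CPM in Pi. NRT1.5, which loads nitrate into the xylem, was at -2.31 ± 0.10, and the nitrite reductase gene NIR1 at -1.48 ± 0.10. HHO1, a repressor that links phosphate and nitrate, had 32.4, 27.4 and 29.6 CPM in 5Pi_cZ, 57.1, 55.5 and 53.9 CPM in 5Pi, and 28.2, 28.7 and 29.3 CPM in Pi. Its starvation rise of 0.95 stayed under 2-fold, and its interval in 5Pi_cZ (-0.12 to 0.22) lies inside the margin. In the sulfate list 9 of 19 were higher and 7 lower, beside 26.4% and 28.7% of all genes, with SULTR1;2, the main root sulfate importer, at -1.59 ± 0.11 and SULTR1;1 at 1.61 ± 0.15.

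Root-hair genes stood about as far above fed roots as in 5Pi. Of 19 members 18 were above Pi and none below, beside 26.4% and 28.7% of all genes. The list median was 1.97 in 5Pi_cZ and 2.04 in 5Pi, and the 16 starvation-changed members kept a median of 98.2%. The summed level of the list was 5087, 3578 and 4465 CPM in 5Pi_cZ, 3996, 3426 and 4246 CPM in 5Pi, and 749, 890 and 908 CPM in Pi, so the starved groups overlap and Pi stands apart. EXPA7, an expansin of hair cells, had 119, 114 and 107 CPM in 5Pi_cZ, 99.4, 91.0 and 117 CPM in 5Pi, and 29.0, 29.3 and 32.5 CPM in Pi. PRP1, a proline-rich wall protein, rose beyond its starved level, with 528, 315 and 456 CPM in 5Pi_cZ, 82.7, 66.7 and 78.0 CPM in 5Pi, and 25.1, 31.1 and 33.8 CPM in Pi. RSL4, a transcription factor of hair growth, was inside the margin in 5Pi and at 1.70 ± 0.11 in 5Pi_cZ, while RHD6, a factor of hair initiation, and RSL2, a relative of RSL4, were at 0.83 ± 0.09 and 1.46 ± 0.13 over Pi and lower than in 5Pi, with log2 differences of -0.45 and -0.86.

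Of 24 cell division genes 9 were above Pi and 1 below, beside 26.4% and 28.7% of all genes, and 14 did not pass the test. Their median was 0.19 in 5Pi_cZ and 0.36 in 5Pi. The summed level was 479, 467 and 505 CPM in 5Pi_cZ, 492, 539 and 517 CPM in 5Pi, and 429, 408 and 380 CPM in Pi, so Pi lies below both starved groups, which overlap. CDKB2;2, a mitotic kinase, was at 0.05 ± 0.09 over Pi in 5Pi_cZ and 0.71 in 5Pi. CYCB1;2, a mitotic cyclin, was at -0.11 ± 0.12 in 5Pi_cZ and 0.52 in 5Pi. Replication genes such as MCM6 (0.44 ± 0.11) and TSO2 (0.48 ± 0.10) remained above Pi. CYCD3;1, a cyclin that cytokinin is known to induce, rose to 46.3 ± 5.8 CPM in 5Pi_cZ, against 22.9 ± 2.3 CPM in 5Pi and 21.5 ± 0.84 CPM in Pi (SD, n = 3).

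Most water channels were lower: 8 of 10 aquaporins were lower than in Pi and 2 higher, beside 28.7% and 26.4% of all genes. Their median was -2.09 in 5Pi_cZ and -0.45 in 5Pi. TIP2;2 had 23.4, 22.98 and 19.7 CPM in 5Pi_cZ, 240, 260 and 250 CPM in 5Pi, and 514, 478 and 484 CPM in Pi (-4.48 ± 0.13, edgeR adjusted p = 6.04e-16). TIP2;3 was at -4.86 ± 0.17 and the plasma membrane channel PIP1;1 at -3.09 ± 0.13. The lignin and flavonoid counts are to be read against the same shares of all genes. Lignin monomer synthesis had 14 of 15 genes above Pi and 1 below (median 0.91, against 0.46 in 5Pi), with 4CL1 at 1.59 ± 0.10 and PAL1 at 1.30 ± 0.10. All 7 flavonoid genes tested were above Pi, median 1.70, led by CHS, chalcone synthase, with 550, 522 and 561 CPM in 5Pi_cZ, 258, 212 and 292 CPM in 5Pi, and 146, 129 and 119 CPM in Pi.

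The auxin and ethylene counts are to be read against 26.4% higher and 28.7% lower over all genes. Among 24 auxin genes 9 were higher and 10 lower, with IAA17 at 1.58 ± 0.08 and GH3.5, an auxin-conjugating enzyme, at -1.49 ± 0.10. Among 21 ethylene genes 8 were higher and 11 lower, with ACS7, an ethylene synthesis enzyme, at 2.70 ± 0.15 and the ACC oxidase ACO3 at -1.74 ± 0.12. Of 5 genes of root growth arrest in low phosphate, ALMT1 and LPR1 were higher (0.62 ± 0.15 and 0.69 ± 0.12) and STOP1 and LPR2 lower (-0.71 ± 0.06 and -0.42 ± 0.08).

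**Figure D5:**
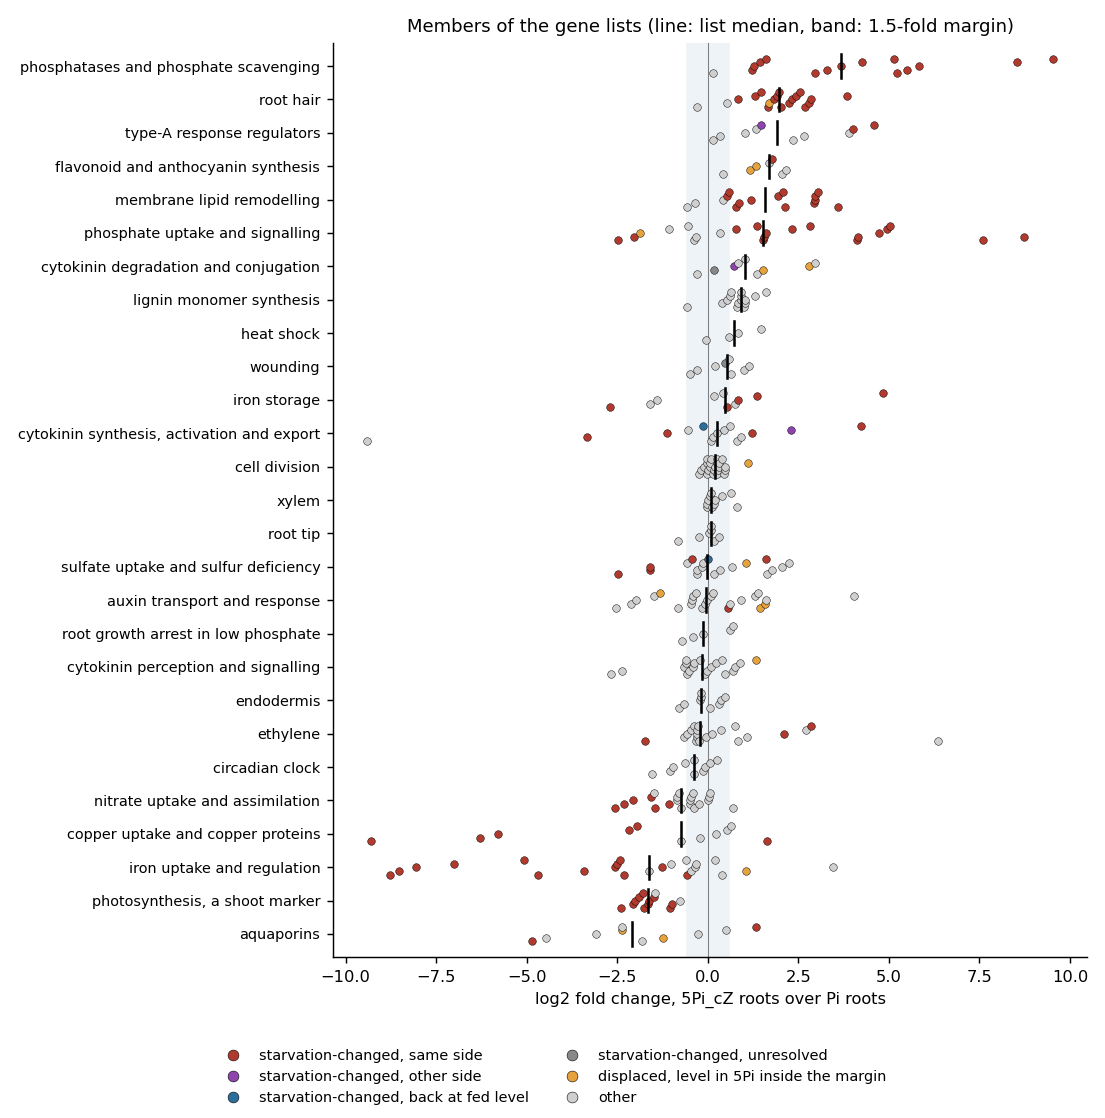
Log2 fold change of 5Pi_cZ over Pi (horizontal axis) for the 378 tested members of 27 gene lists, sorted by list median; each point is a gene coloured by where it stands, the black line is the list median and the pale band is the 1.5-fold margin. Phosphatase, root hair and type-A response regulator lists lie to the right, aquaporin, photosynthesis and iron uptake lists to the left, and cell division, xylem and root tip genes mostly inside the band.

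Marker lists of other tissues and of handling were measured beside these results. All 13 photosynthesis genes, markers of shoot tissue, were below Pi with a median of -1.64; their summed level was 35.3, 37.6 and 32.7 CPM in 5Pi_cZ, 31.2, 44.8 and 45.6 CPM in 5Pi, and 85.2, 133 and 93.1 CPM in Pi. Root tip genes had 0 higher and 2 lower of 7, endodermis 2 and 1 of 9, xylem 3 and 0 of 11, beside 26.4% higher and 28.7% lower over all genes, and none of these 3 lists had a median beyond 0.18 from 0. The 4 heat-shock genes summed to 239, 272 and 453 CPM in 5Pi_cZ, 215, 142 and 219 CPM in 5Pi, and 209, 215 and 212 CPM in Pi. Every 5Pi_cZ library thus lies above the others, R3 the most. Of these genes 3 were above Pi and 0 below, beside 26.4% and 28.7% of all genes (median 0.71). All 4 were above 5Pi, beside 13.1% of all genes, and 3 above 5Pi_tZ, beside 1.42%. Of 8 wounding genes 4 were higher and 2 lower, and of 10 clock genes 1 and 5, beside the same shares of all genes. The part of these markers in the results above was not tested.

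Starved cis-zeatin and starved trans-zeatin roots, matched in dose and time, were compared directly as 1 pair. In this test 553 genes (2.77%) differed, 283 higher (1.42%) and 270 lower (1.35%) in 5Pi_cZ, and 171 of the 1764 starvation-changed genes were among them. Of 111 starvation-raised genes that differed 100 were higher in 5Pi_cZ, and of 60 starvation-lowered genes that differed 55 were lower in 5Pi_cZ, the side to which starvation had moved them. PS2 averaged 95.4 ± 3.1 CPM in 5Pi_cZ, 47.8 ± 7.8 CPM in 5Pi_tZ and 2.54 ± 0.57 CPM in Pi (SD, n = 3), a log2 difference of 0.996 between the isomers (edgeR adjusted p = 0.000159). PECP1 differed by 1.07, SPX3 by 0.89, SPX1 by 0.68 and PHT1;4 by 0.56. BCAT4, back at the fed level in 5Pi_cZ, was higher there than in 5Pi_tZ by 1.59, with a mean of 57.8 CPM in 5Pi_cZ, 19.2 CPM in 5Pi_tZ and 62.3 CPM in Pi. AGT, an aminotransferase, was at 3.35 CPM in 5Pi_cZ, 8.12 CPM in 5Pi_tZ and 88.9 CPM in Pi. For most genes no isomer difference was detected, which does not show that the isomers act alike: for CKX5 the difference was -0.015 (95% interval -0.16 to 0.13) and for IPS1 0.24 (-0.06 to 0.54). The count of isomer differences rests on the libraries used, from 293 without 5Pi_tZ R2 to 847 without 5Pi_cZ R1, and was 79 when only these 2 groups were fitted.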

How the data were processed

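The deposited table holds raw counts per gene for 18 libraries, although its name speaks of normalized values: all are whole numbers and library totals differ. Upstream tools, per the submitters' processing notes, were HISAT2, HTSeq, edgeR, FastQC and CASAVA 1.4. The genome build and the strandedness of the kit are not given in the sources used here, so overlapping antisense genes are uncertain. A sequencing report deposited by the authors gave the reads discarded for undetermined bases. Of 37037 listed genes 12384 had no read; 24500 of the other 24653 matched RefSeq TAIR10.1, which gave symbols and promoters.

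Counts were fitted with edgeR 4.0.16 (quasi-likelihood, TMM, 1 mean per group over all 18 libraries) in R 4.3.3, after a filter at a minimum count of 10 that left 19982 genes, and p-values were adjusted by Benjamini-Hochberg at 0.05. The standard error is the log2 fold change over the root of the F statistic. Genes with no read in both groups (1) had no interval. The steps were tested on simulated data. Groups follow the labels. limma 3.58.1 (voom), DESeq2 1.42.0, RLE scaling, other filters, margins and fits, and leaving out each library of the groups compared, were alternatives. Figures used Python 3.11.15 and matplotlib 3.10.9.

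The members and the 27 gene lists (396 genes, 378 tested) were chosen with earlier results of these data known. The rule for named genes took, with a mean level above the median, the 10 largest rises and falls, 8 raised and 8 lowered genes that were back, 5 rises and 5 falls of each other displaced class, every type-A response regulator, and from each list the members that were back and at most 4 others with the smallest adjusted p. Other list members named, among them PHT1;9, PHO1, PHO1;H1, PHO2, NLA, SPX3, PHR1, PHL1, PHF1, PAP24, PAP26, MGD3, DGD1, PAH1, IRT2, NAS1, F6'H1, BGLU42, HHO1, SULTR1;1, CKX4, EXPA7, RHD6, RSL2, CDKB2;2 and CYCB1;2, were chosen after their values were seen.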

Additional observations from a re-analysis of the deposited data

How the results depend on the processing

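No called value of the 152 genes named by rule changed sign under the alternatives run for single genes. Other named genes were not rerun. The 11004 genes that differed between 5Pi_cZ and Pi ranged from 9735 to 10604 without 1 library of these 2 groups, reached 11355 without 5Pi_tZ R2, whose spread the fit shares, and were 10735 with DESeq2 and 10991 with no filter. The ranges that follow leave out 1 library of the groups each comparison uses. The 2625 at least 2-fold ranged from 2601 to 2673, and 3020 passed a test for more than 1.5-fold. Genes back at the fed level ranged from 45 to 64, displaced on the same side from 1457 to 1503, and on the other side from 39 to 59. Those displaced although starvation alone left them inside the margin ranged from 192 to 241. Without 5Pi_cZ R2, which stands apart from its replicates, 55 genes were back, 46 of them among the 56. The margin decides the class: 7 were back with a margin of 25% and 221 with one of 2-fold. With these margins 37 and 737 were displaced although starvation alone left them inside the margin. With starvation changes of any fold, 3160 were back, 5008 displaced on the same side and 317 on the other. Genes that differed between 5Pi_cZ and 5Pi_tZ numbered 926 with DESeq2, 79 in a fit of only the groups compared, which has fewer libraries, and 293 to 847 without 1 library of these groups. Those between 5Pi_cZ and 5Pi ranged from 5226 to 6260, and called list members from 288 to 298 beside 304. Same-numbered libraries of 5Pi_cZ and Pi did not deviate together (correlations -0.037, 0.035 and -0.068); with the replicate block 10918 genes differed, 52 were back, 1480 and 45 displaced and 470 differed between isomers. Calls of single genes were not rerun without libraries of 5Pi or 5Pi_tZ. Over these 152 genes and the alternatives run for single genes, 26 values lost a call, in CYP710A2, HSP101, IDD2, JAZ7, SGN3, SHR and VND6, 14 gained one and 2088 did neither. Depth limits IRT1, FRO5, IPS1 and PECP1, which have few reads in one group.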
